A study of Mus musculus with 24 samples.

Results

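Hypoxia-inducible genes that act outside glycolysis were followed in mouse fibroblasts cultured under metal powders. The set holds 32 genes: carbonic anhydrases, mitochondrial and mitophagy proteins, glycogen enzymes, lipid-handling proteins, secreted factors, transcription and chromatin regulators, and regulators of growth signalling and redox state. They were chosen by symbol, older aliases included, and not by their values. All 32 had a probe on the arrays, and 23 of them passed the filter on dim probes and are among the 13402 genes tested; the other 9 were too dim and are named with their role groups.

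The cells were BALB/3T3 clone A31, a single cloned line of embryonic fibroblasts of the strain BALB/c, and all groups were grown in the same serum-supplemented medium. The control group received no metal. The other groups had powder of pure iron at 3.25 mg/ml, pure manganese at 0.5 mg/ml or Fe-35Mn, an alloy of the same metals, at 5 mg/ml, held in culture inserts above the cell layer for 24 h. Each of the 4 groups had 6 Illumina bead arrays, and the sample titles call these technical replicates, so p-values measure only the spread between arrays. The doses of the metals differ, so no comparison below is at matched doses. RNA was measured in bulk, and fewer expressing cells and less RNA per cell cannot be told apart.

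Hypoxia-inducible factor (HIF) is a pair of an oxygen-regulated alpha subunit and the stable partner Arnt. When oxygen is present, prolyl hydroxylases of the Egln family, which carry iron in their active site and use oxygen and 2-oxoglutarate, mark the alpha subunit for destruction through the Vhl ubiquitin ligase. When hydroxylation stops, the pair binds a short core sequence, ACGTG or GCGTG, near target genes. Its best-known targets run glycolysis; the genes described here set pH, mitochondrial turnover, fuel storage and signalling.

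Between 36.9% and 43.4% of the probes exceeded background on an array, with medians of probe intensity from 61.6 to 75.3. Both lowest values were those of alloy replicate 4, the dimmest array. The next lowest were 39.3% (manganese replicate 1) and 68.8 (alloy replicate 1). Precision is limited by how many arrays there are and by whether they come from separate cultures, which is not stated. Of 11 fibroblast markers, 8 were above background on all 24 arrays, while Col1a1, Lum and Fap were so on none. The adipocyte markers Adipoq, Pparg and Fabp4 and the macrophage markers Ptprc and Adgre1 were above background on none, and Csf1r was so on 1 array. Krt8 of the epithelial list and Des of the myogenic list were above background on all 24 arrays, Cdh1 on 21, Myog on 20 and Cdh5 on 7. Their group means were low, from 6.40 (Cdh5, control) to 7.20 (Des, manganese) on the log2 scale. The other epithelial, endothelial and myogenic markers, Epcam, Krt18, Pecam1, Kdr and Myod1, were above background on none. Cd68 of the macrophage list had no probe. The alloy arrays stood apart in spread: the median SD of a gene was 0.15 with the alloy against 0.08 in each other group (log2 scale). On the first principal component, which held 75.6% of the variance, alloy replicates 1, 3 and 4 scored 39.4, 48.6 and 27.4, the manganese arrays 22.3 to 26.8 and the other alloy arrays 9.52 to 19.0. The fits were therefore repeated without replicates 1, 3 and 4, and values that this moved by over 1.5 times are given with the results. These arrays were picked by scores from the same values. They scored highest of the alloy arrays, so the cut is one-sided and leaves those nearest to the controls on this component. The p-values and counts of the repeated fits therefore describe how far results rest on these arrays and are no independent test.

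Manganese raised most of the measured set, the alloy raised a smaller share of it, and no member passed the test with iron. With manganese 20 of 23 tested members rose and 2 fell at an adjusted p of 0.05 (limma, Benjamini-Hochberg over all genes), where 29.7% of all tested genes rose and 31.6% fell. The alloy raised 15 and lowered 2, against 23.4% and 25.9% of all genes. Rises of at least 2-fold were seen in 8 members with manganese (2.4% of all genes) and in 6 with the alloy (2.33% of all genes). The median log2 change of the members was 0.72 with manganese, 0.45 with the alloy and -0.05 with iron, where the medians over all genes were -0.00, -0.01 and 0.00. Gbe1, dim in control, passed the filter largely through manganese and alloy arrays, so its rise is partly fixed by the filter and is no support for these counts; with at least 12 arrays above background it was left out, and of 22 members 19 rose with manganese and 14 with the alloy, with 2 lower in each. These 3 comparisons share the control arrays.

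**Figure D1:**
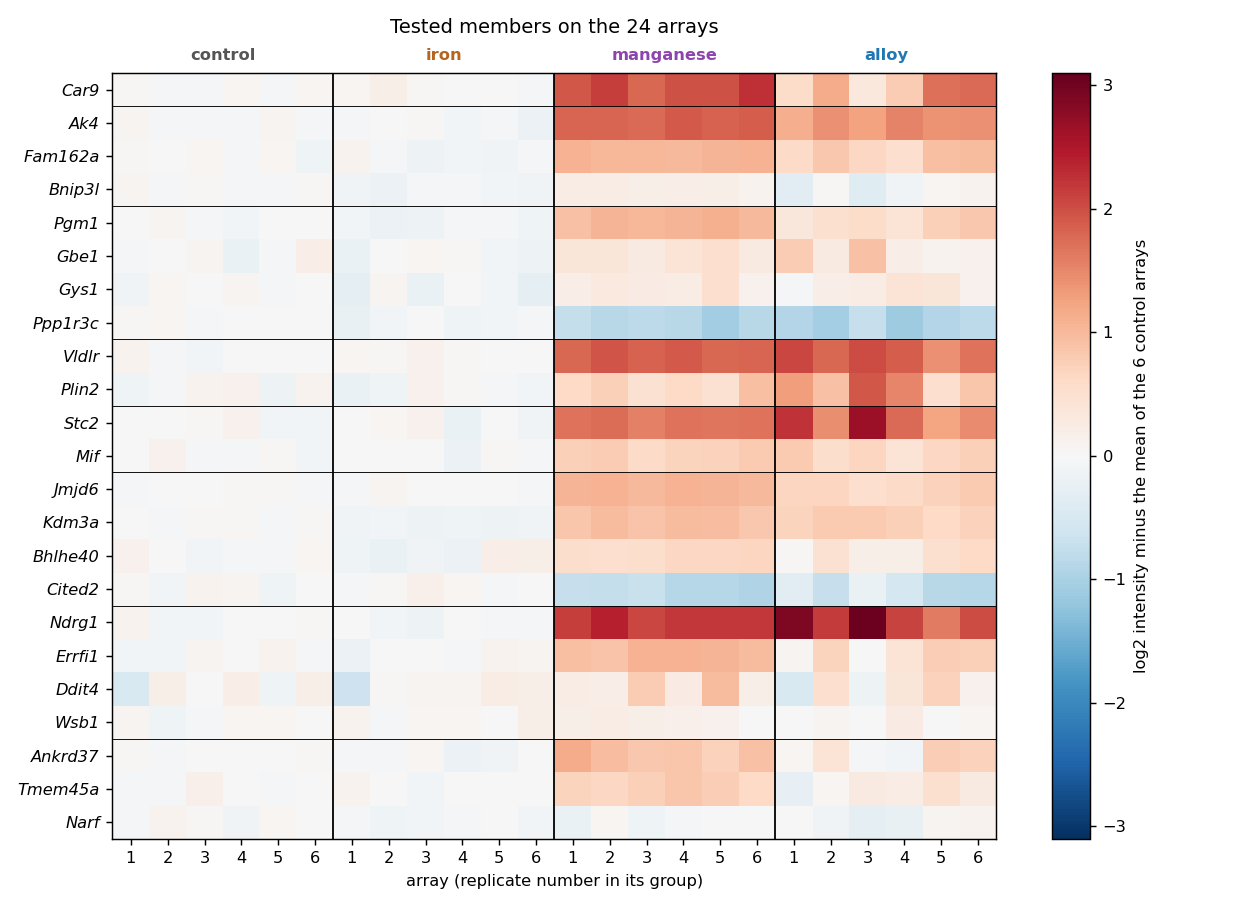
Log2 intensity of the 23 tested members (one line each, grouped by role in the order of the text) on the 24 arrays (columns), as the difference from the mean of the 6 control arrays; red is higher and blue lower. The 6 manganese columns look alike, while the alloy columns differ from each other, as the 0.23 median SD of the members with the alloy against 0.08 with manganese shows.

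In some members the arrays of 2 groups did not overlap at all. This held for 20 members between manganese and control, where 42.4% of all genes did not overlap, and for 13 between alloy and control, where 32.9% did not. Gbe1, which the filter favoured, is among the 20 and is no support for that count. The counts depended on scaling. With median scaling the alloy raised 1524 and lowered 3803 of all genes, and with no normalisation 1070 and 3779, against 3134 and 3473 with quantile normalisation; the members then stood at 12 and 2, and at 11 and 2. For manganese the split over all genes was 3272 to 4719 with median scaling and 3012 to 4856 without normalisation, against 3983 to 4232, and 20 members rose and 3 fell under both. Without normalisation the median of all genes shifted by -0.13 (log2) with the alloy and -0.05 with manganese.

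**Figure D2:**
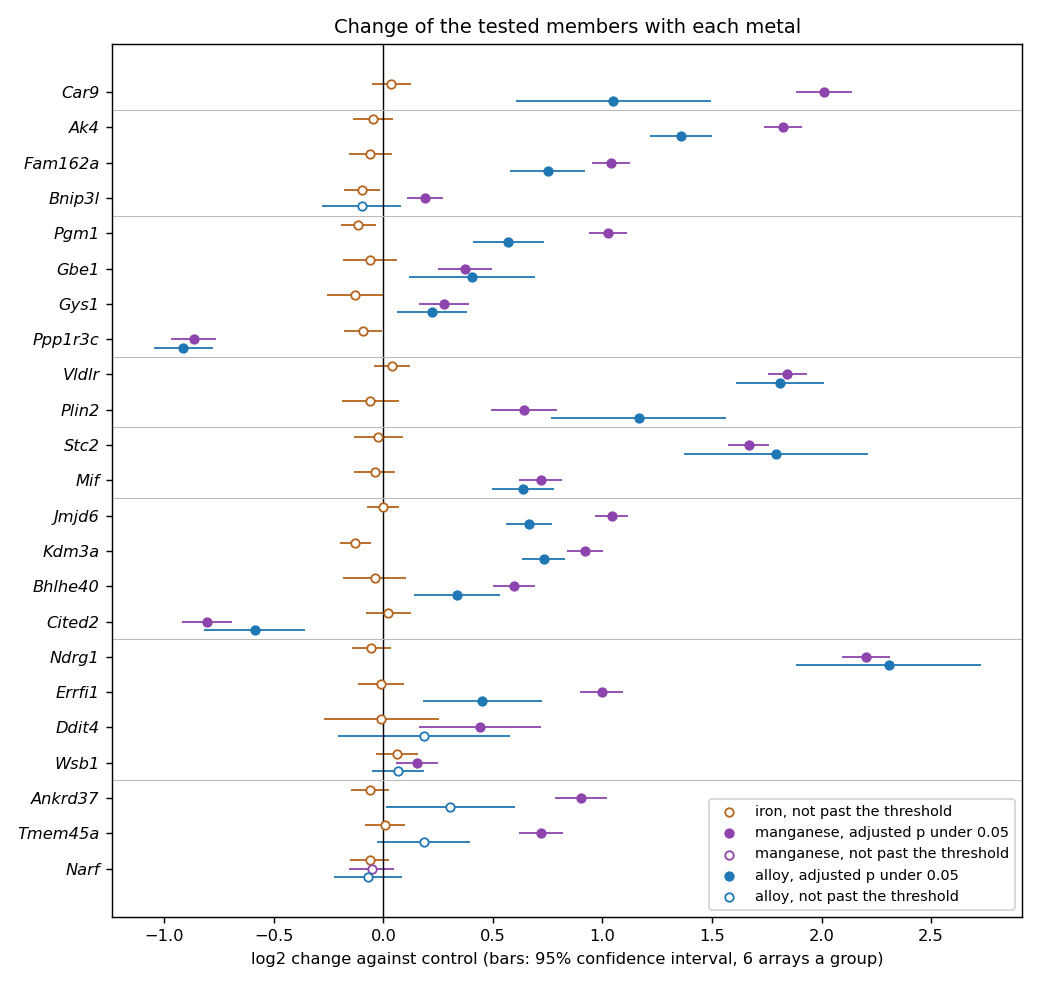
Log2 change of each tested member against control with iron, manganese and alloy, with 95% confidence intervals from the linear model over 6 arrays a group; filled points have an adjusted p under 0.05. The iron points lie between -0.13 and 0.06, and the manganese points reach 2.20.

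Promoter sequence was at hand for 27 members (36 annotated starts) from RefSeq on GRCm38.p6, each covering 250 bases before to 50 bases after the start. ACGTG or GCGTG was looked for on both strands, and so was TGATGNAA, a site like those bound by Atf4, the transcription factor of the amino acid and integrated stress responses; CACGTG counts on both strands of the core. The hypoxia core was found in 23 of 27 members (85.2%), in 66.6% of 8562 tested genes with a sequence and in 46.7% of all 27025 genes with one. It was present in 14 of the 17 members that rose with manganese, in both that fell and in 6 of the 7 that were not tested. The Atf4-like site was found in 1 member, Vldlr (3.70%), and in 2.81% of the tested genes. A match describes letters in the window and not a bound site.

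Promoters are shown, 5′ to 3′ on the gene's strand, for a member with a strong rise and a single core match (Car9), for members with several matches that rose (Ankrd37, Fam162a), for a strong riser with no core match but the Atf4-like site (Vldlr, its second annotated start) and for a member that fell and whose promoter holds the core (Ppp1r3c). Capitals mark the core, or in Vldlr the Atf4-like site.
Car9, chr4:43506776-43507075 (+ strand): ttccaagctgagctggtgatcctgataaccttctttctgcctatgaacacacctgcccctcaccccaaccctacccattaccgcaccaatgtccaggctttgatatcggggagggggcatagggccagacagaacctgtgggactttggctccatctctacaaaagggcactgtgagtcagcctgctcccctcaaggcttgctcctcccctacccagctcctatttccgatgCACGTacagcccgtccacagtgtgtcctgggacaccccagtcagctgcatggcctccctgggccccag
Ankrd37, chr8:45999801-46000100 (- strand): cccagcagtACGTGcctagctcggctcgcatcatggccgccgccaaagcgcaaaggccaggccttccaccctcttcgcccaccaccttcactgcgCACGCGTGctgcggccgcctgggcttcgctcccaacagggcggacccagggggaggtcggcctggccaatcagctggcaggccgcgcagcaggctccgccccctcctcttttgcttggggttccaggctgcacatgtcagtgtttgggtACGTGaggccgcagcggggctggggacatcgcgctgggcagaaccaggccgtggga
Fam162a, chr16:36071512-36071811 (- strand): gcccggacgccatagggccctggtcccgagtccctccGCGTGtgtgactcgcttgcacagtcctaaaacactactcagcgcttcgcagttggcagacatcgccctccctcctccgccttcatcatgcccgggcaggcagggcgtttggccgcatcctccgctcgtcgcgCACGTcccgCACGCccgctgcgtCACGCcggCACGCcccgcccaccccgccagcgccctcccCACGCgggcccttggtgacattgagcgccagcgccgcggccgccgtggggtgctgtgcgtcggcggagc
Vldlr, chr19:27216770-27217069 (+ strand): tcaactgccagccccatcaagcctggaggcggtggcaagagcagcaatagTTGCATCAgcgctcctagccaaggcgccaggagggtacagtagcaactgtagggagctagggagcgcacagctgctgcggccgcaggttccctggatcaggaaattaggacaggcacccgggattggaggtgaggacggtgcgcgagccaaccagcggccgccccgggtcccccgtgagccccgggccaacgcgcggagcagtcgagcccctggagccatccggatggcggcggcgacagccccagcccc
Ppp1r3c, chr19:36736555-36736854 (- strand): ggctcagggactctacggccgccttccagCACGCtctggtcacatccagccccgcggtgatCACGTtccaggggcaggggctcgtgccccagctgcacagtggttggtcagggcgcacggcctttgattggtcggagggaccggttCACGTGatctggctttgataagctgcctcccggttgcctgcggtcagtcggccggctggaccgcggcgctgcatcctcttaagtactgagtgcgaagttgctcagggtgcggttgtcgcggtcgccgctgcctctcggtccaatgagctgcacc

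**Figure D3:**
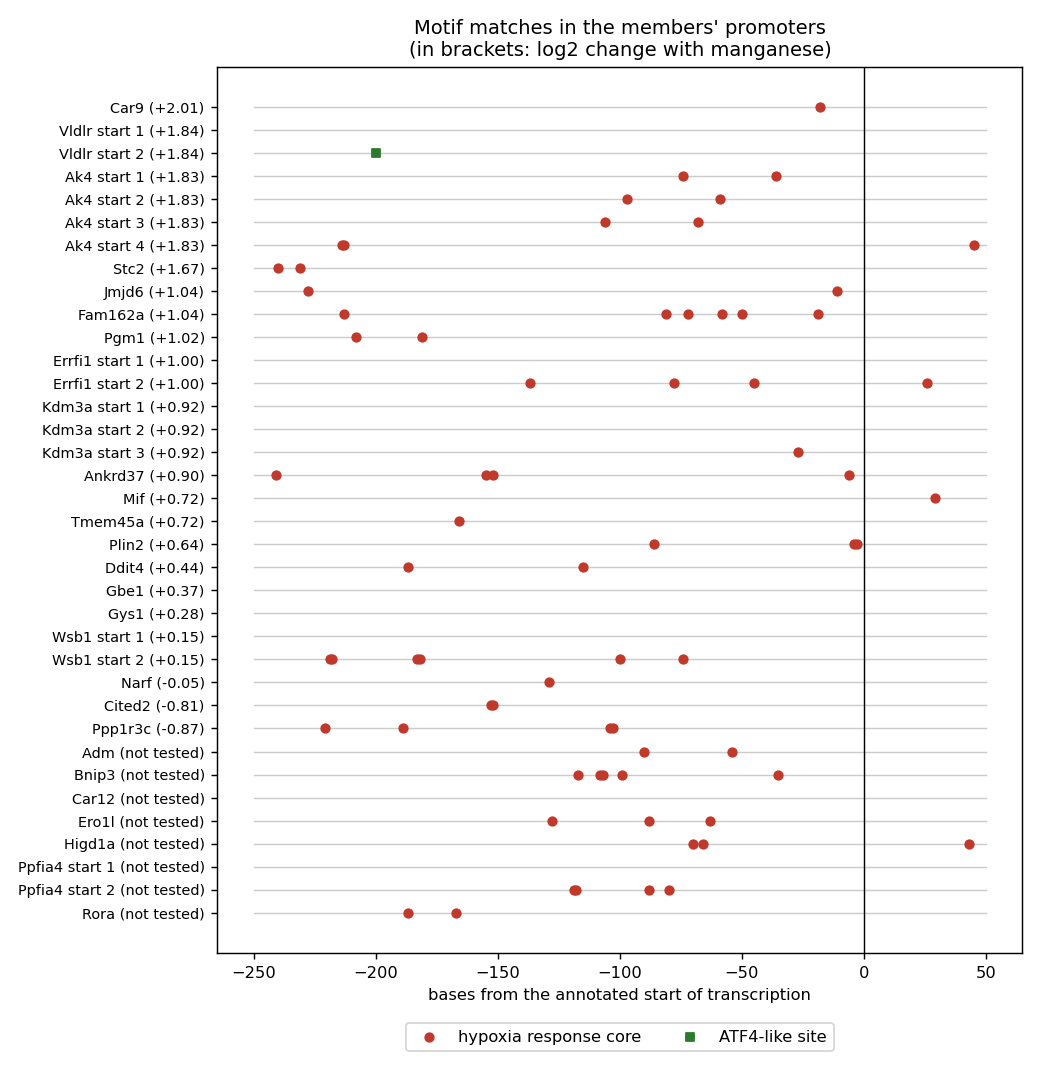
Positions of the hypoxia core (red circles) and the Atf4-like site (green square) in the members' promoters, in bases from the annotated start of transcription; brackets give the log2 change with manganese. Core matches occur in members that rose, in the 2 that fell and in 6 that were not tested, and both Vldlr promoters have none.

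Carbonic anhydrase 9, encoded by Car9, sits in the plasma membrane and hydrates carbon dioxide outside the cell. Its log2 intensity (lowest, median and highest of 6 arrays) was 6.64, 6.70 and 6.75 in control, 6.66, 6.71 and 6.89 with iron, 8.48, 8.67 and 8.96 with manganese, and 7.03, 7.67 and 8.44 with the alloy. Every manganese array lay above every alloy array, and every alloy array above every control array. The rise was 2.01 ± 0.06 on the log2 scale with manganese (SE, 4.03-fold, adjusted p = 2.97e-16, limma). With the alloy it was 1.05 ± 0.21 (2.07-fold, adjusted p = 0.000768), and 1.54 without alloy replicates 1, 3 and 4. Alloy replicates 1 and 3, at 7.26 and 7.03, were the lowest of their group and replicates 5 and 6, at 8.40 and 8.44, the highest. Other kept Car9 probes, each above background on 11 arrays, gave smaller rises. These were 0.83 and 1.37 with manganese and 0.42 and 0.65 with the alloy. Both probes were dim in control, at 6.23 and 6.21, so their rises may be cut short near background. The filter also favoured probes that are higher with a metal. The related Car12 was above background on no array.

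Among mitochondrial members, Ak4 encodes an adenylate kinase of the matrix that balances adenine nucleotides. It lay at 7.18, 7.22 and 7.34 in control (lowest, median, highest), 7.07, 7.20 and 7.29 with iron, 8.998, 9.06 and 9.14 with manganese, and 8.37, 8.65 and 8.79 with the alloy. Manganese and alloy arrays did not overlap with each other or with the controls. The log2 change was 1.83 ± 0.04 with manganese (3.54-fold, adjusted p = 3.25e-18) and 1.36 ± 0.07 with the alloy (2.56-fold, adjusted p = 4.46e-09). Fam162a, a mitochondrial protein linked to cell death in low oxygen, lay at 11.85, 12.002 and 12.06 in control, 11.84, 11.91 and 12.11 with iron, 12.99, 13.02 and 13.07 with manganese, and 12.50, 12.73 and 12.96 with the alloy. The alloy arrays again lay between the control and manganese arrays without overlap. Its rise was 1.04 ± 0.04 with manganese (adjusted p = 1.96e-14) and 0.75 ± 0.08 with the alloy (adjusted p = 3.6e-06). Bnip3l, a receptor that tags mitochondria for autophagy, was 0.19 higher with manganese (adjusted p = 0.000271), and the alloy gave a difference of -0.10 (adjusted p = 0.356), or 0.07 without replicates 1, 3 and 4 (adjusted p = 0.263). Its relative Bnip3 was above background on no array, and Higd1a, a protein of the inner mitochondrial membrane, on 1 array.

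The glycogen genes did not move one way: Pgm1 and Gys1 rose with manganese and with the alloy, Ppp1r3c fell with both, and Gbe1 was too dim in control to be counted with them. Pgm1, which interconverts glucose 1-phosphate and glucose 6-phosphate, lay at 12.49, 12.57 and 12.64 in control, 12.39, 12.45 and 12.50 with iron, 13.48, 13.60 and 13.66 with manganese, and 12.92, 13.09 and 13.40 with the alloy. Control, alloy and manganese arrays formed separate ranges in that order. Its log2 change was 1.02 ± 0.04 with manganese (2.03-fold, adjusted p = 1.81e-14) and 0.57 ± 0.08 with the alloy (1.48-fold, adjusted p = 2.65e-05). The array lists this gene under an older symbol, PGM2, and its probe for the gene now called Pgm2 was above background on no array. Gys1, the glycogen synthase of muscle and most other tissues, was higher by 0.28 with manganese (adjusted p = 0.000204) and by 0.22 with the alloy (adjusted p = 0.0222). The alloy value for Gys1 did not pass without control replicate 1 (adjusted p = 0.0524) or with median scaling (0.10, adjusted p = 0.363). Gbe1, the branching enzyme, had differences of 0.37 and 0.40 (adjusted p = 1.36e-05 and 0.0216). It was above background on 1 control, no iron, 6 manganese and 3 alloy arrays, so the filter favoured a gene that is higher there. Without alloy replicates 1, 3 and 4 its alloy difference was 0.17 (adjusted p = 0.0586), and without control replicate 4 it was 0.36 (adjusted p = 0.0516). Ppp1r3c, which brings protein phosphatase 1 to glycogen, went the other way. It lay at 7.97, 8.02 and 8.09 in control, 7.79, 7.95 and 8.02 with iron, 6.95, 7.17 and 7.30 with manganese, and 6.93, 7.13 and 7.31 with the alloy. It fell by 0.87 ± 0.05 on the log2 scale with manganese (adjusted p = 5.06e-12) and by 0.91 ± 0.06 with the alloy (adjusted p = 6.86e-08), and neither group overlapped with the controls.

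The lipid members both rose. Vldlr, a receptor that takes up triglyceride-rich lipoproteins, lay at 9.48, 9.55 and 9.66 in control, 9.55, 9.59 and 9.69 with iron, 11.35, 11.37 and 11.51 with manganese, and 10.97, 11.39 and 11.64 with the alloy. Its change was 1.84 ± 0.04 with manganese (3.59-fold, adjusted p = 4.84e-18) and 1.81 ± 0.09 with the alloy (3.51-fold, adjusted p = 5.83e-09). Both groups lay above all controls and overlapped with each other, and neither annotated promoter held the hypoxia core. Plin2, a coat protein of lipid droplets, lay at 9.20, 9.37 and 9.48 in control, 9.14, 9.27 and 9.48 with iron, 9.82, 9.97 and 10.27 with manganese, and 9.86, 10.45 and 11.27 with the alloy. Both metal groups lay above all controls and overlapped with each other; the alloy minus manganese difference of 0.52 was the most positive among the members but did not pass the test (adjusted p = 0.139). It was 0.11 without alloy replicates 1, 3 and 4 (adjusted p = 0.539), and its adjusted p was 0.0361 without replicate 5 alone. Against control it rose by 0.64 ± 0.07 with manganese (adjusted p = 1.51e-07) and by 1.16 ± 0.19 with the alloy (adjusted p = 0.000137); without alloy replicates 1, 3 and 4 the alloy value was 0.75.

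Secreted factors were represented by Stc2 and Mif. Stc2, a stanniocalcin glycoprotein, lay at 7.28, 7.36 and 7.51 in control, 7.17, 7.35 and 7.50 with iron, 8.93, 9.05 and 9.10 with manganese, and 8.59, 8.97 and 10.02 with the alloy. Alloy replicates 1 and 3, at 9.62 and 10.02, were above the rest of the alloy arrays and above every manganese array. The change was 1.67 ± 0.04 with manganese (3.18-fold, adjusted p = 4.23e-17) and 1.79 ± 0.20 with the alloy (3.47-fold, adjusted p = 4.82e-06), or 1.37 without replicates 1, 3 and 4. Mif, a cytokine that restrains macrophage migration, rose by 0.72 ± 0.05 with manganese (adjusted p = 4.1e-11) and by 0.64 ± 0.07 with the alloy (adjusted p = 3.24e-06). Stc1 and Adm, the precursor of the vasodilator peptide adrenomedullin, were above background on no array.

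Both members of the JmjC oxygenase family rose. Jmjd6, a lysyl hydroxylase, lay at 11.87, 11.91 and 11.94 in control, 11.88, 11.90 and 11.99 with iron, 12.91, 12.96 and 12.99 with manganese, and 12.44, 12.58 and 12.72 with the alloy. Every alloy array lay above all controls and below all manganese arrays. The log2 change was 1.04 ± 0.04 with manganese (adjusted p = 1.74e-15) and 0.66 ± 0.05 with the alloy (adjusted p = 1.48e-07). Kdm3a, which removes methyl groups from histone H3 lysine 9, rose by 0.92 ± 0.04 with manganese (adjusted p = 5.56e-14) and by 0.73 ± 0.04 with the alloy (adjusted p = 2.26e-08). Bhlhe40, a transcriptional repressor that also acts in the circadian clock, rose by 0.60 ± 0.05 (adjusted p = 5.31e-10) and 0.34 ± 0.09 (adjusted p = 0.00671); the alloy value was 0.20 with median scaling (adjusted p = 0.326) and 0.53 without alloy replicates 1, 3 and 4. Cited2, which competes with HIF for the coactivators CBP and p300, fell. It lay at 11.02, 11.17 and 11.28 in control, 11.09, 11.17 and 11.32 with iron, 10.23, 10.35 and 10.46 with manganese, and 10.27, 10.54 and 10.95 with the alloy. Neither metal group overlapped with the controls. The log2 level fell by 0.81 ± 0.05 with manganese (adjusted p = 7.12e-11) and by 0.59 ± 0.11 with the alloy (adjusted p = 0.000411). For Rora, a nuclear receptor, both annotated probes were above background on no array, and a probe tied to it only by its symbol on 1 array.

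Ndrg1, a stress-induced protein known as a suppressor of metastasis, had the largest change of the set with manganese and with the alloy. It lay at 9.34, 9.45 and 9.54 in control, 9.28, 9.39 and 9.43 with iron, 11.51, 11.62 and 11.85 with manganese, and 11.04, 11.56 and 12.48 with the alloy. Alloy replicates 1 and 3, at 12.33 and 12.48, lay above every manganese array, and replicates 5 and 6, at 11.04 and 11.46, below every one; all lay above the controls. The log2 change was 2.20 ± 0.05 with manganese (4.60-fold, adjusted p = 8.26e-18) and 2.31 ± 0.20 with the alloy (4.95-fold, adjusted p = 5.03e-07), or 1.93 without replicates 1, 3 and 4. Errfi1, a feedback inhibitor of the epidermal growth factor receptor, lay at 10.22, 10.31 and 10.42 in control, 10.13, 10.30 and 10.42 with iron, 11.20, 11.32 and 11.40 with manganese, and 10.30, 10.88 and 11.08 with the alloy. It rose by 1.00 ± 0.05 with manganese (adjusted p = 2.85e-13), just under the 2-fold line, and by 0.45 ± 0.13 with the alloy (adjusted p = 0.00856), or 0.73 without replicates 1, 3 and 4; with median scaling the alloy value was 0.33 (adjusted p = 0.127). Alloy replicates 1 and 3 lay inside the control range for Errfi1, and the rest of the group above it.

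The remaining regulators moved less. Ddit4, an inhibitor of the mTORC1 growth pathway, lay at 10.52, 11.09 and 11.20 in control, 10.34, 11.07 and 11.21 with iron, 11.17, 11.23 and 11.97 with manganese, and 10.51, 11.24 and 11.72 with the alloy, so that all groups overlapped. It was higher by 0.44 ± 0.13 with manganese (adjusted p = 0.00727); the alloy difference of 0.19 did not pass the test (adjusted p = 0.435), and without replicates 1, 3 and 4 it was 0.46 (adjusted p = 0.00948). Wsb1, a substrate receptor of a ubiquitin ligase, was higher by 0.15 with manganese (adjusted p = 0.00667) and differed by 0.07 with the alloy (adjusted p = 0.359; 0.04 without replicates 1, 3 and 4). Ero1l, which forms disulfide bonds in the endoplasmic reticulum, was above background on no array. For Nos2, the inducible nitric oxide synthase, the brightest probe was above background on 5 arrays, of which 3 were manganese arrays.

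Members with less defined roles split. Ankrd37, an ankyrin repeat protein, lay at 8.26, 8.34 and 8.36 in control, 8.13, 8.28 and 8.38 with iron, 9.04, 9.21 and 9.48 with manganese, and 8.25, 8.57 and 9.08 with the alloy. It rose by 0.90 ± 0.06 with manganese (adjusted p = 2.08e-11), and its alloy difference of 0.30 did not pass the test (adjusted p = 0.0807). The alloy difference was 0.63 without replicates 1, 3 and 4, which were picked on the same values (adjusted p = 4.03e-07). Leaving out replicate 3 or 4 alone also gave an adjusted p under 0.05 (0.0233 and 0.0299). Tmem45a, a transmembrane protein, rose by 0.72 ± 0.05 with manganese (adjusted p = 6.45e-11) and differed by 0.18 with the alloy (adjusted p = 0.144). Without replicates 1, 3 and 4 the alloy value was 0.28 (adjusted p = 0.00649), and without replicate 1 alone the adjusted p was 0.00677. Another kept Tmem45a probe, above background on 20 arrays, differed by only 0.09 with manganese and -0.02 with the alloy. Narf, a nuclear protein that binds prelamin A, was the tested member that did not pass with manganese: the difference was -0.05 (95% confidence interval -0.16 to 0.05, adjusted p = 0.368), and it passed as lower with median scaling (adjusted p = 0.0285) and without normalisation (adjusted p = 0.0182). Ppfia4, a liprin scaffold protein, was above background on no array.

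**Figure D4:**
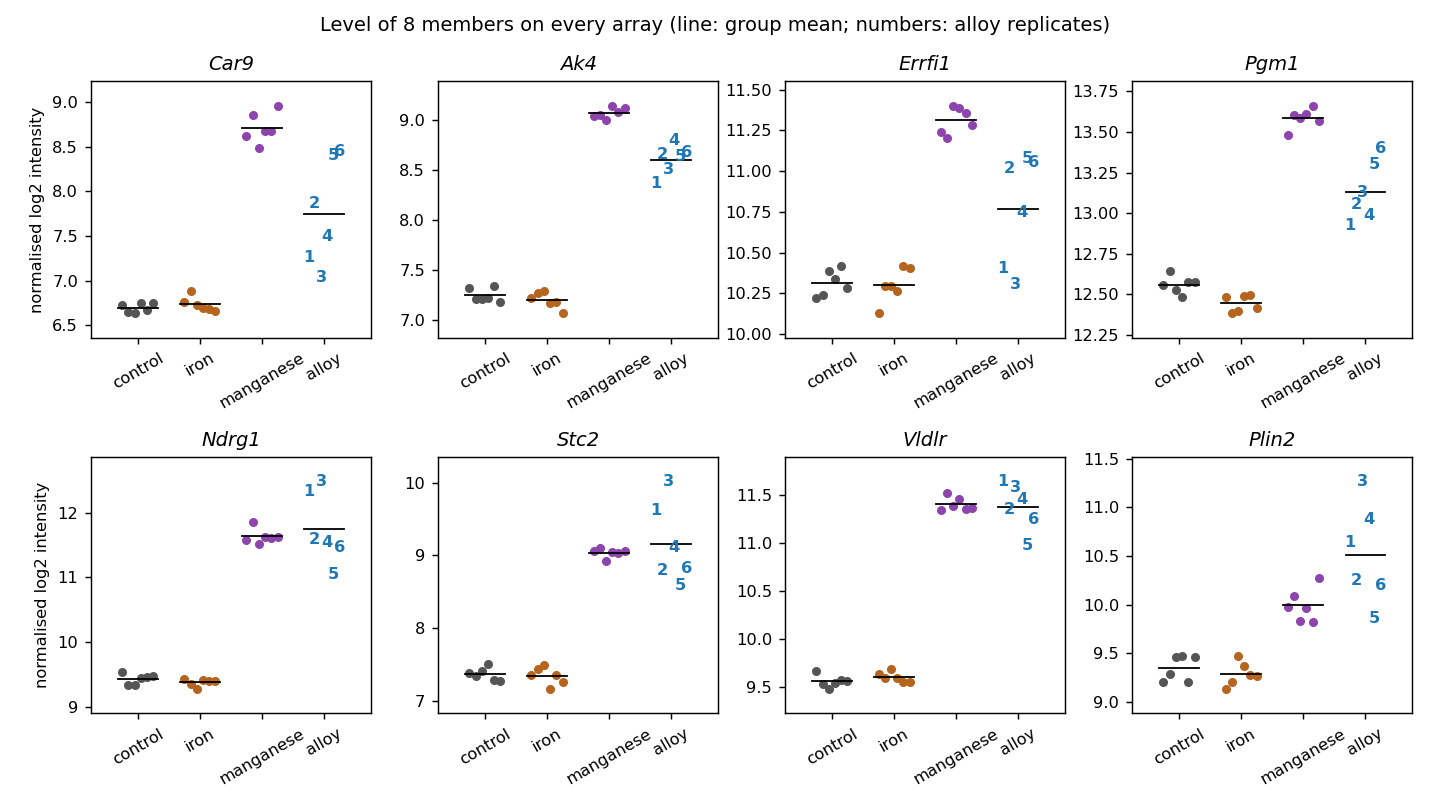
Normalised log2 intensity of 8 members on every array, with group means as lines and the alloy arrays drawn as their replicate numbers; each panel has its own axis, which does not start at 0. In the upper panels alloy replicates 1 and 3 are low for Car9, Ak4 and Errfi1, and in the lower panels they are high for Ndrg1, Stc2 and Vldlr.

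The alloy arrays differed from each other in both directions. Replicates 1 and 3 lay above the other 4 alloy arrays for 5 members (Ndrg1, Stc2, Gbe1, Vldlr and Cited2), as for 19.3% of all genes. They lay below them for 6 (Car9, Ak4, Bnip3l, Ddit4, Bhlhe40 and Errfi1), as for 18.5% of all genes. The SD over alloy arrays exceeded that over manganese arrays in 23 of 23 members and in 82.0% of all genes. Without replicates 1, 3 and 4, the alloy raised 17 members and lowered 2 against control, where 24.1% of all genes rose and 25.2% fell. Ankrd37, Ddit4 and Tmem45a joined the rises and Gbe1 left them. Those replicates were picked on the same values, so this count is no independent support.

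With iron no member passed the test, where 0.761% of all genes rose and 1.55% fell. At an unadjusted p under 0.05, 5 members were below control by limma: Kdm3a, Pgm1, Bnip3l, Ppp1r3c and Gys1. Of all genes 18.1% had such a p in either direction, so the members' count is near that of genes at large. Their differences were -0.13, -0.11, -0.10, -0.09 and -0.13 on the log2 scale. For Pgm1 another kept probe, above background on all 24 arrays, was higher with iron by 0.11, so its direction depended on the probe. Kdm3a was nearest to the threshold, with 10.18, 10.21 and 10.25 (lowest, median, highest) against 10.30, 10.35 and 10.37 in control and an adjusted p of 0.054. It passed the test under 4 alternatives: a filter of 12 arrays above background, array weights, and both of the authors' normalized tables. The 95% intervals for Car9 and Ndrg1 ran from -0.05 to 0.13 and from -0.14 to 0.03.

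Set directly against manganese, the alloy gave lower levels in 9 members and a higher level in none, where 2.22% of all genes were lower and 1.9% higher at the same threshold. The 9 were Car9 (-0.96 ± 0.21, adjusted p = 0.0262), Ankrd37 (-0.60), Errfi1 (-0.54), Tmem45a (-0.53), Ak4 (-0.47 ± 0.07, adjusted p = 0.00219), Pgm1 (-0.45), Jmjd6 (-0.38 ± 0.05, adjusted p = 0.00145), Fam162a (-0.29) and Kdm3a (-0.19). Arrays of the groups did not overlap, with the alloy lower, for 9 members, the same less Ankrd37 and with Bnip3l, and for 2.07% of all genes. Differences with intervals across 0 included Vldlr (-0.03, -0.24 to 0.17), Ppp1r3c (-0.05, -0.21 to 0.11), Ndrg1 (0.10, -0.32 to 0.53) and Stc2 (0.12, -0.29 to 0.54).

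The count of 9 changed with single arrays. It was 4 without alloy replicate 1 or 4, or without manganese replicate 2, 4, 5 or 6, and 5 without manganese replicate 3; Ak4, Jmjd6, Pgm1 and Tmem45a passed with any single array left out. Bnip3l (-0.29, adjusted p = 0.0691) passed as lower without alloy replicate 5 (adjusted p = 0.0409) or 6 (adjusted p = 0.0407), and Bhlhe40 (-0.26, adjusted p = 0.117) without alloy replicate 6 (adjusted p = 0.048). With median scaling or with no normalisation only Ak4 passed (-0.57, adjusted p = 0.0123, and -0.60, adjusted p = 0.0294). Without alloy replicates 1, 3 and 4, 8 members were lower, as were 5.41% of all genes: Ankrd37 (-0.27, adjusted p = 0.0659) and Fam162a (-0.13, adjusted p = 0.133) no longer passed, and Stc2 passed as lower (-0.30, adjusted p = 0.00526). Car9 and Errfi1 still passed with smaller differences of -0.47 (adjusted p = 0.0166) and -0.26 (adjusted p = 0.00825). Ndrg1 and Gbe1 (0.03) turned to -0.27 and -0.20, and Vldlr went to -0.22 (adjusted p = 0.0974, 0.0587 and 0.0712). Bnip3l and Bhlhe40 shrank to -0.12 and -0.06 (adjusted p = 0.155 and 0.534). Alloy replicates 1, 3 and 4 were picked on the same values, so calls without them are no independent test.

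**Figure D5:**
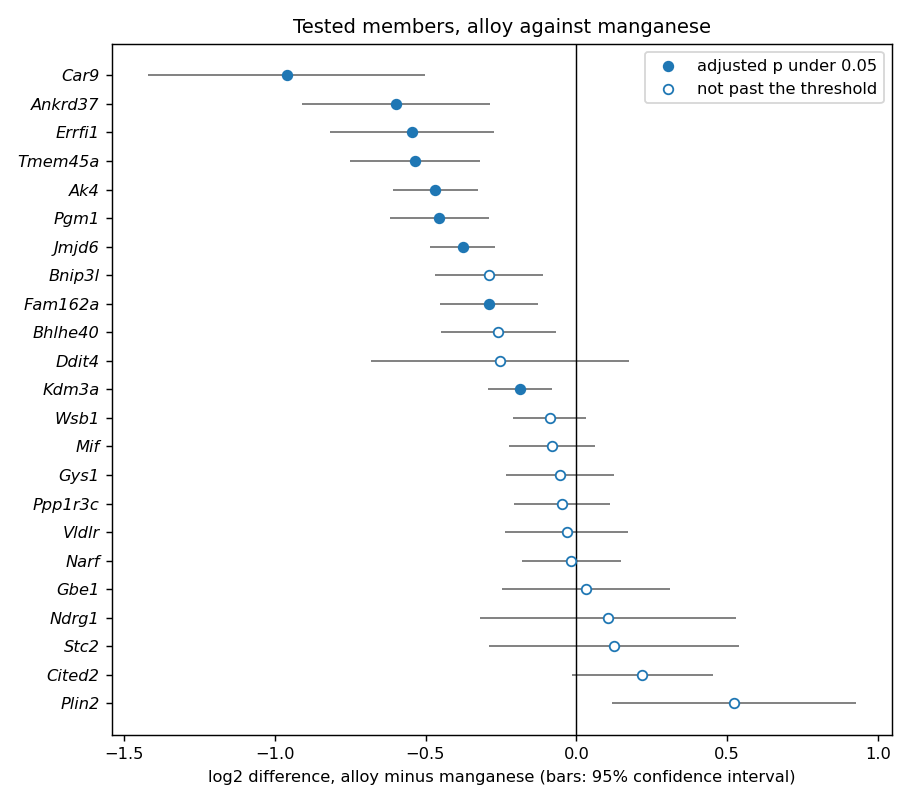
Log2 difference between alloy and manganese for each tested member, sorted, with 95% confidence intervals over 6 arrays a group; filled points have an adjusted p under 0.05. All 9 filled points lie left of 0, from -0.96 for Car9 to -0.19 for Kdm3a.

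Other genes of the pathway were read from lists chosen by name. Of 10 HIF subunits and hydroxylases, 8 were tested: 4 rose and 1 fell with manganese, 2 rose and 1 fell with the alloy, and none passed with iron or between alloy and manganese. Of all genes 29.7% rose and 31.6% fell with manganese, and 23.4% and 25.9% with the alloy. Taken in both directions together, the calls of this list are near those shares with either treatment. The 3 calls with the alloy became 1 with the mean of a gene's probes, 1 without normalisation and 0 with treat against a 1.2-fold change. Between alloy and manganese, 1 or 2 passed in some other fits. Egln3, a prolyl hydroxylase that HIF itself induces, rose by 0.87 with manganese and 0.53 with the alloy (adjusted p = 7.62e-13 and 0.00531). Hif1an, the asparagine hydroxylase that restrains HIF, rose by 0.32 and 0.17 (adjusted p = 4.26e-06 and 0.0459), and Arnt fell by 0.40 and fell by 0.34 (adjusted p = 2.1e-05 and 0.000857). Transcript levels of Hif1a differed by -0.00 with manganese (adjusted p = 0.969) and 0.07 with the alloy (adjusted p = 0.631); the alpha subunits are regulated mainly as proteins, which were not measured.

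Of 19 glycolytic hypoxia targets, 14 were tested, and 10 rose and 1 fell with manganese (median 0.51), while 9 rose and 1 fell with the alloy (median 0.32). Over all genes 29.7% rose and 31.6% fell with manganese, and 23.4% and 25.9% with the alloy. Slc2a1, the glucose transporter Glut1, rose by 1.70 with manganese (adjusted p = 6.09e-16) and 1.40 with the alloy (adjusted p = 1.3e-08). The glycolytic enzyme Pfkl rose by 1.52 and 1.03 (adjusted p = 8.49e-16 and 4.01e-06), and Pdk1, which holds pyruvate back from the mitochondria, rose by 0.87 with manganese (adjusted p = 9.31e-13) and differed by 0.38 with the alloy (adjusted p = 0.112). Of 24 other hypoxia targets, 20 were tested. In this list 10 rose and 6 fell with manganese (median 0.19), and 9 rose and 7 fell with the alloy (median 0.11). Its falls with manganese are near the 31.6% of all genes. The angiogenic factor Vegfa rose by 2.63 and 2.50 (adjusted p = 1.25e-20 and 5.11e-11) and Hmox1, the heme-degrading oxygenase, by 2.35 and 3.37 (adjusted p = 5.89e-16 and 4.2e-06). Lox, which cross-links collagen, fell by 1.92 with manganese and fell by 2.26 with the alloy (adjusted p = 5.89e-16 and 2.57e-06). With iron 3 genes of this list passed: Tfrc, the transferrin receptor, and Lox fell by 0.86 and 0.18, and Hmox1 rose by 0.21 (adjusted p = 3.52e-06, 0.0483 and 0.0217). Tfrc was named after its value was seen. Set directly against manganese, the alloy gave lower levels in 2 of the 14 glycolytic targets and 3 of the 20 other targets. It gave higher levels in none of either list. Of all genes 2.22% were lower and 1.9% higher.

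A list of 14 genes around Atf4 was read beside them, because several members, such as Ndrg1, Stc2, Vldlr and Ddit4, are also known to respond to cell stress. All 14 were tested and rose with manganese (median 1.64) and with the alloy (median 1.65), and none passed with iron. Among all genes 29.7% rose with manganese and 23.4% with the alloy. The pro-apoptotic factor Ddit3 rose by 2.47 with manganese and 2.45 with the alloy (adjusted p = 2.64e-20 and 2.91e-07), the kinase-like protein Trib3 by 2.41 and 2.55 (adjusted p = 8e-20 and 2.55e-11) and the stress protein Nupr1 by 2.57 and 2.72 (adjusted p = 8.58e-20 and 7.86e-08). Fibroblast markers moved in the same samples: 8 of the 8 tested fell with manganese (median -0.67) and 6 with the alloy (median -0.80). The shares of all genes that fell were 31.6% and 25.9%. The summed intensity of these 8 markers was 30098 to 32556 on control arrays, 29947 to 36306 with iron, 20379 to 23014 with manganese and 18013 to 25835 with the alloy. Of the 2 tested myogenic markers 1 rose with each of these metals, and none of the epithelial or endothelial markers passed. The part of the Atf4 genes or of the fibroblast markers in the members' changes was not tested.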

How the data were processed

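Total RNA was labelled as biotinylated cRNA and hybridised to 24 Illumina bead arrays. Per the file headers, the deposited probe table used here holds linear intensity without normalisation. The authors' normalized tables hold log2 values per the file headers, and lumi and RMA appear, without versions, in the submitters' processing notes. No detection p-values or control probes were at hand.

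Intensities were corrected with normexp (offset 50), quantile normalised over 24 arrays and put on the log2 scale. Background on an array was taken from the mode of its log2 intensities and the spread on the lower side of it, and a probe was above background when it passed the upper 1% point of that normal distribution. Probes that did so on at least 6 arrays were kept (20205 of 45281), and the brightest probe per gene gave 13402 genes. Of all probes, 34885 had 1 annotated gene, 18 had several and were left out, and 10378 kept the array's own symbol (2864 of the tested genes, counted but not named). Members had 60 probes, 39 of them kept. The 16 kept beside the chosen ones had the chosen probe's sign with manganese, but sizes could differ, as for Car9 and Tmem45a. Among the 16, both Car9 probes, a Gbe1 probe and a Vldlr probe were above background on only 9 to 11 arrays. They were dim in control, at 6.21 to 6.23 on the log2 scale. There the filter favoured a rise, so the sign of these probes is no support. With iron the sign could differ, as for Pgm1.

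Each comparison was fitted on its 2 groups alone with limma 3.58.1 in R 4.3.3 (lmFit and eBayes, two-sided, Benjamini-Hochberg over all genes at 0.05), and intervals are unadjusted. Python 3.11.15, pandas 2.3.3, NumPy 2.4.6, SciPy 1.17.1 and Matplotlib 3.10.9 read, matched and plotted the data. The steps were tested on simulated data. No 2 arrays held the same values, and no batch was in the labels.

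Every member is named. Members changed by at least 1 on the log2 scale have each group's values in full, and others were added for context after their values were seen. Of each list the 3 genes with the smallest adjusted p with manganese are named. Members, lists and tests were chosen with earlier results of these data known.

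Alternatives were the other deposited tables, other scaling, filters, offset, probe choice, array weights, 1 model over all arrays, a minimum fold of 1.2 (treat), the replicate block and arrays left out.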

Additional observations from a re-analysis of the deposited data

Results flagged for a closer look

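In 6 of 92 sets of 6 arrays, taken over the 23 tested members and 4 groups, 1 array lay far from the rest by Dixon's 95% criterion, where chance gives 4.6. Ndrg1 was highest on manganese replicate 2, at 11.85 against 11.63 for the nearest array. Ddit4 was lowest on iron replicate 1, at 10.34 against 11.03. It was also lowest on replicate 1 in control (10.52) and with the alloy (10.51), without being flagged there. Fam162a was highest on iron replicate 1, at 12.11 against 11.92. Jmjd6 was highest on iron replicate 2, at 11.99 against 11.91. Wsb1 was highest on alloy replicate 4, at 11.83 against 11.66. Tmem45a was highest on control replicate 3, at 8.46 against 8.31. All values are normalised log2 intensities, and the cause was not tested.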

How the results depend on the processing

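The 22 members called with manganese and the 17 with the alloy stayed within 1.5 times of those counts under every alternative, with 16 to 18 for the alloy when single arrays were left out. Of members called with iron (none), Kdm3a alone passed, giving a count of 1, with the filter of 12 arrays, array weights and both of the authors' normalized tables. The 9 members called between alloy and manganese became 1 with median scaling, 1 without normalisation, 5 with the replicate block, 0 with treat, and 4 to 10 with single arrays left out. Without alloy replicates 1, 3 and 4, differences between alloy and manganese turned from 0.12 to -0.30 for Stc2, from 0.10 to -0.27 for Ndrg1 and from 0.03 to -0.20 for Gbe1; the latter 2 passed in neither fit, nor did Ddit4, Narf and Cited2, which also changed sign, or Bnip3l and Narf, which did so against control. Of all tested genes, the 2.31% called with iron became 0.239% with 1 model over all arrays, 1.05% with median scaling, 1.02% with no filter on dim probes, 1.07% without normalisation, 1.51% with an offset of 16, 3.49% with the replicate block, 0.00746% with treat, and 0.933% to 2.65% with single arrays left out (lowest without control replicate 4 and iron replicates 3, 5 and 6). The 61.3% called with manganese became 30.5% with no filter and 22.9% with treat, and the 49.3% called with the alloy 23.8% and 17.6%. The 4.12% called between alloy and manganese became 15.0% with 1 model, 10.4% without alloy replicates 1, 3 and 4, 11.96% with array weights, 0.239% with median scaling, 1.66% with no filter, 0.127% without normalisation, 2.62% with the replicate block, 0.119% with treat, and 1.29% to 6.54% with single arrays left out. Replicate numbers are not stated to pair arrays. Same-numbered arrays correlated in their deviations at -0.00 to 0.35 for iron and -0.16 to 0.18 for manganese. The range was -0.10 to 0.20 for the alloy against control and -0.20 to 0.25 between alloy and manganese. The highest values for iron and for the alloy against control, 0.35 and 0.20, were those of replicate 1. The authors' normalized tables gave smaller changes, with member medians of 0.42 and 0.51 with manganese and 0.23 and 0.25 with the alloy. The 9 dim members were limited by signal over background, and the causes of these shifts were not tested.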
